A study of Mus musculus with 17 samples.

Results

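Malat1 and Neat1 are neighbouring long noncoding RNA genes on mouse chromosome 19, and the rows described here are the deposited transcript rows that lie over them. All rows whose position overlapped an interval of 60 kb that holds both genes were taken, which gave 11 of 23940 rows. Of these, 8 rows lay over Malat1 and 3 over Neat1, and no row lay between the genes. The choice used positions only and no measured value.

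The study sequenced total RNA from the right ventricle (RV) and left ventricle (LV) of newborn male C57Bl/6 mice, with strand-specific paired-end libraries. Hearts were taken at postnatal day 0 (P0), day 3 (P3) and day 7 (P7), with no treatment. The groups were RV P0, RV P3, LV P0, LV P3 and LV P7 with 3 libraries each, and RV P7 with 2 libraries, 17 libraries in all. The labels call the libraries biological replicates and do not say whether RV and LV libraries with the same number came from the same animal.

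Malat1 is transcribed as a long, mostly unspliced RNA that stays in nuclear speckles, the compartments where splicing factors gather, and it is known as a highly abundant RNA in many mammalian tissues. Neat1 is the scaffold of paraspeckles, another kind of nuclear body. It is made as a short isoform with a poly(A) tail and as a long isoform that shares the same start and builds the paraspeckle. The mature 3' end of Malat1 and that of the long Neat1 isoform carry no ordinary poly(A) tail: RNase P cuts them before a tRNA-like RNA, and an A-rich run folds back on U-rich runs to protect the end.

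This end structure is the sequence feature that the genes are known to share, and it is shown because it marks which annotated isoform has such an end. The 90 bases below were read from the GENCODE M21 transcripts Malat1-201 and Neat1-201, on the minus strand of GRCm38, at chr19:5795982-5796071 for Malat1 and chr19:5824708-5824797 for Neat1. Both stretches are exonic. Capitals mark the runs of at least 11 bases that the stretches have in common.
Malat1-201: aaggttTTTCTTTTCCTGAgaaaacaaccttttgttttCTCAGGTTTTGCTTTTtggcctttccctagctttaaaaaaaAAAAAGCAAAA
Neat1-201: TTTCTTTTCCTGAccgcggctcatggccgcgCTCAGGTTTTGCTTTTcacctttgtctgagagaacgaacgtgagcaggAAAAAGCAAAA

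The shared runs came in the same order in both RNAs, a U-rich run of 13 bases, a U-rich run of 16 bases and an A-rich run of 11 bases (T stands for U). Searched on the RNA strand only, TTTCTTTTCCTGA and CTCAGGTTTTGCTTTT were each in the last 400 bases of 2 of 8047 lincRNA transcripts (0.0249%), and AAAAAGCAAAA in 11 (0.137%). All 3 runs occurred together in 2 transcripts, which were Malat1-201 and Neat1-201. The runs were taken from these 2 transcripts, so each count includes them. The annotated Neat1-201 ends with the A-rich run, with 0 bases after it, whereas 292 more bases of the annotated Malat1-201 follow.

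The deposited tables name no unit. Their values were taken for FPKM, in which a row's fragments are divided by its length in kilobases and by the depth of the library. TPM values would show like steps, so FPKM is an inference on which the depth, the fragments and the scale of each level rest. Under that reading the libraries held 13.8 to 20.5 M fragments. Row positions are printed as deposited and were taken to be on mm9, the assembly before GRCm38, although the assembly was not settled. The start positions of 4 Malat1 rows and of all 3 Neat1 rows were nevertheless the same number as the RefSeq gene starts on GRCm38. The 4 assembled Malat1 rows, with TCONS names, had the position chr19:5795690-5802671, which ended 1 base before the RefSeq gene. The other 4 Malat1 rows, with NONCODE names, had the position chr19:5795076-5802772. It began 614 bases before the RefSeq gene and ended 100 bases after it. All 3 Neat1 rows had the position chr19:5824708-5845704, which ended 224 bases after the RefSeq gene. Rows that share a position gave different lengths below, so a position need not be the extent of a single row. The positions of a gene's rows overlap, so reads can be split among them.

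Values of a row moved in steps of 0.5 of a fragment, so for rows above 0 in at least 5 libraries the smallest length that put every value on a whole step could be found. The Neat1 row NONMMUT033624 gave 20771 bases, exactly the length of the long isoform Neat1-201. It is called the long-isoform row for that length alone. Fragments from the start that both isoforms share could come from either. The Neat1 row NONMMUT033634 had a single value above 0, too few to solve a length; at the length of the short isoform Neat1-202, 3004 bases, that value would be 1.0 fragment. The Malat1 row NONMMUT033607 gave 1756 bases, NONMMUT033600 gave 7003, TCONS_00030258 gave 4902 and TCONS_00030255 gave 6237. None of the 8 Malat1 rows had values that all fell within 0.01 of a whole step at the length of an annotated Malat1 transcript, 6983, 656, 556 or 485 bases. By position alone, the 4 tied rows with the best match to the Malat1 span were the TCONS rows. Among the solved lengths, however, the 7003 bases of NONMMUT033600 came nearest to the 6983 bases of Malat1-201. Most of the Malat1 signal lay in NONMMUT033607.

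Malat1 stood among the higher rows of these noncoding tables, yet below 2 FPKM in every library, although it is known as an abundant RNA. The row NONMMUT033607 averaged 0.675 FPKM over the 17 libraries, with a range of 0.189 to 1.4 FPKM, and ranked 2152 of 23940 rows by mean. It was above 0 in 17 of 17 libraries and made up 92.1% of the summed Malat1 rows. The other 7 Malat1 rows were sparse. NONMMUT033616 averaged 0.0163 FPKM and was above 0 in 4 libraries. TCONS_00030258 averaged 0.0114 FPKM in 8 libraries and NONMMUT033600 averaged 0.0104 FPKM in 11. NONMMUT033617 averaged 0.0109 FPKM and was above 0 in LV P3 replicates 1 and 2 only, at 0.0928 and 0.0919 FPKM. TCONS_00030255, TCONS_00030256 and TCONS_00030254 averaged 0.00431, 0.00246 and 0.00203 FPKM. What share of the reads from Malat1 these rows hold was not tested.

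The positioned rows of Neat1 lay lower still. Rows without a position were left out, among them NONMMUT033632, numbered between the Neat1 rows, at a median of 0.471 FPKM. The long-isoform row NONMMUT033624 averaged 0.0221 FPKM, with a highest value of 0.0449 FPKM, and ranked 13240 of 23940. It was above 0 in 16 of 17 libraries and made up 75.2% of the summed Neat1 rows. NONMMUT033633 was above 0 in LV P3 replicate 2, LV P7 replicate 1 and RV P0 replicate 1 only, at 0.0342, 0.0364 and 0.0363 FPKM. Those 3 values corresponded to the same number of fragments whatever the length of the row. That length was not solved. Each value would be 1.95 fragments at the 3004 bases of Neat1-202 and 13.5 at the 20771 bases of Neat1-201, neither within 0.01 of a whole step. NONMMUT033634 was above 0 in RV P3 replicate 1 alone, at 0.0171 FPKM.

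**Figure D1:**
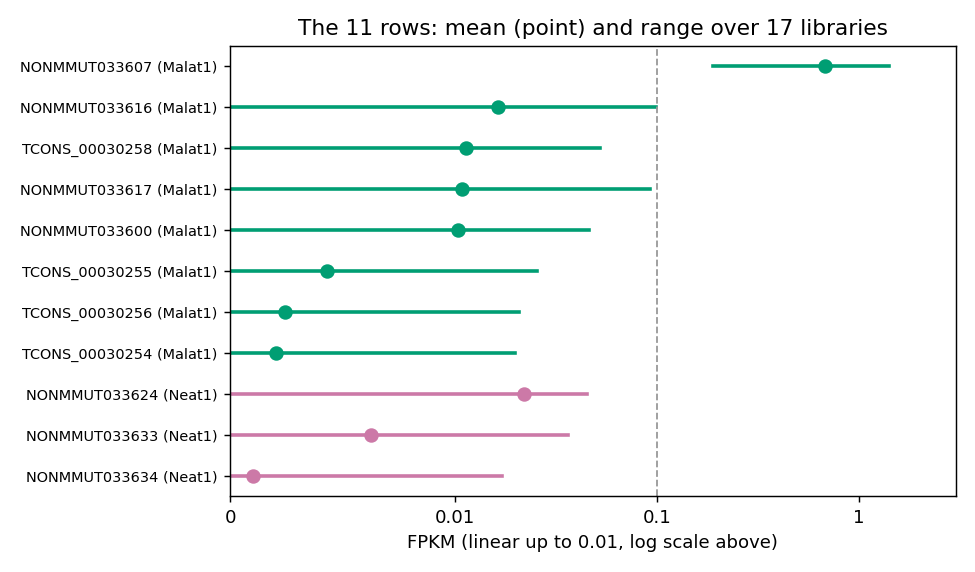
Mean FPKM (point) and range over the 17 libraries (line) of each of the 11 rows, on an axis that is linear up to 0.01 FPKM and logarithmic above it, with a dashed line at the 0.1 FPKM used as the filter. NONMMUT033607 of Malat1, at a mean of 0.675 FPKM, is the only row whose whole range lies to the right of that line.

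For each gene, the rows were summed into a gene level, which left 23931 rows. The Malat1 sum ranked 2010, with 8.39% of rows higher, and its rank per library lay between 1114 and 4180. The Neat1 sum ranked 12069, with 50.4% of rows higher, and lay between 8744 and 14648. These ranks are among noncoding rows only, and the Neat1 sum holds positioned rows only. Across all positions, rows at a position with 4 or more rows, as for Malat1, had a median mean level of 0.0399 FPKM. The median was 0.0316 FPKM at positions with 2 or 3 rows, as for Neat1, and 0.0267 FPKM for rows alone at a position. Whether splitting of reads lowered the level of a row was not tested.

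By a mitochondrial row picked from these data, the libraries fell into separate sets that the labels do not name. Malat1 moved with them. This row of the mitochondrial chromosome stood at 132 to 247 FPKM in 6 libraries and at 7.93 to 25.8 FPKM in the other 11. The high set held RV P0 replicate 3, RV P3 replicates 1 and 3, LV P0 replicate 3 and LV P3 replicates 1 and 3, and so no P7 library. It held the same replicate numbers in both ventricles. Other library measures overlapped between the sets. The median of the tested rows was 0.182 to 0.224 FPKM in the high set and 0.119 to 0.197 FPKM in the low set. The share of rows at 0 was 34.1% to 41.7% in the high set and 38.6% to 49.2% in the low set. The Malat1 sum was 0.855 to 1.49 FPKM in the high set (1.17 ± 0.291, SD, n = 6) and 0.206 to 0.674 FPKM in the low set (0.493 ± 0.148, SD, n = 11), with no overlap. With the set as a term beside the group means, Malat1 was higher in the high set by 1.07 on the log2(FPKM + 0.1) scale, where the median over all tested rows was 0.15 and 0.731% of tested rows had a larger shift. Within a set the Malat1 sum and the mitochondrial row had a Pearson correlation of -0.17 in the high set (n = 6) and 0.21 in the low set (n = 11), each across libraries that share their depth between both measures. The sets were drawn from the data, and their part in the differences below was not tested. For the P7 comparisons, set and age cannot be fully told apart.

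**Figure D2:**
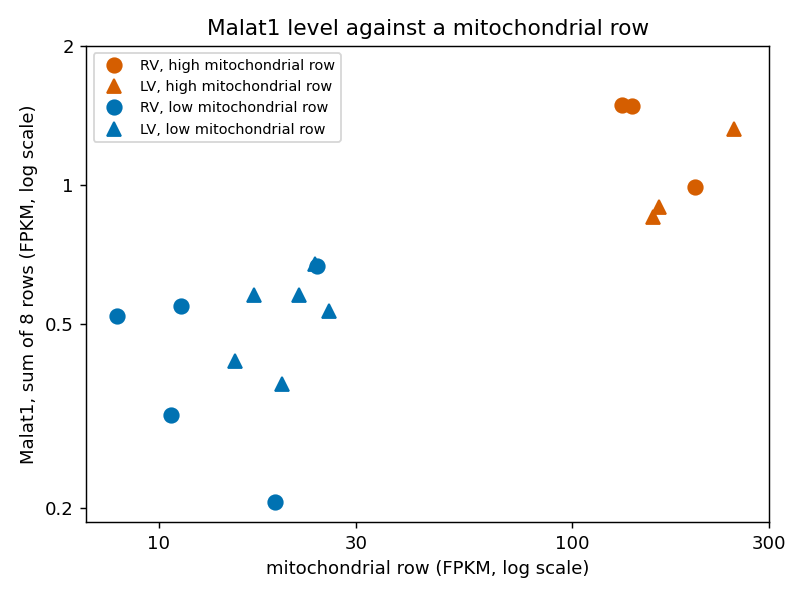
Summed Malat1 level against the level of the mitochondrial row in each of the 17 libraries, both in FPKM on log axes, with colour for the library set and marker shape for the ventricle. The 6 high-set libraries lie at 0.855 FPKM of Malat1 and above, and the 11 low-set libraries at 0.674 FPKM and below.

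Neat1 overlapped between the sets as a sum, at 0.0183 to 0.0566 FPKM in the high set and 0.00289 to 0.0445 FPKM in the low set. Its shift with the set was 0.14 on the log2(FPKM + 0.1) scale, on which a level so far below 0.1 can move little. The long-isoform row was at 0.0183 to 0.0449 FPKM in the high set (0.0368 ± 0.00971, SD, n = 6) and at 0.0 to 0.0377 FPKM in the low set (0.0141 ± 0.0117, SD, n = 11). Of its 138 fragments over all libraries, 83.5 lay in the 6 high-set libraries. For NONMMUT033607 of Malat1 it was 209.5 of 361.5 fragments at its smallest length. The implied depths were 16.7 to 19.5 M fragments per library in the high set and 13.8 to 20.5 M in the low set.

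Malat1 by library was as follows, as the sum of its rows in FPKM and in the order of the replicate numbers. The RV libraries had 0.319, 0.547 and 0.992 FPKM at P0, 1.49, 0.522 and 1.48 FPKM at P3, and 0.206 and 0.67 FPKM at P7. The LV libraries had 0.674, 0.371 and 1.32 FPKM at P0, 0.898, 0.535 and 0.855 FPKM at P3, and 0.58, 0.578 and 0.417 FPKM at P7. The highest values were RV P3 replicates 1 and 3 and the lowest was RV P7 replicate 1. Every pair of groups overlapped.

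As means, Malat1 in the RV was 0.62 ± 0.342 FPKM at P0 (SD, n = 3), 1.16 ± 0.555 FPKM at P3 (SD, n = 3) and 0.438 ± 0.328 FPKM at P7 (SD, n = 2). In the LV the P0 mean was 0.789 ± 0.486 FPKM, the P3 mean 0.763 ± 0.198 FPKM and the P7 mean 0.525 ± 0.0935 FPKM (SD, n = 3 each). In order of mean the groups ran RV P3, LV P0, LV P3, RV P0, LV P7 and RV P7, and no neighbours in that order were separated beyond their spread. In such bulk samples, fewer cells that make an RNA and less of it per cell cannot be told apart.

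**Figure D3:**
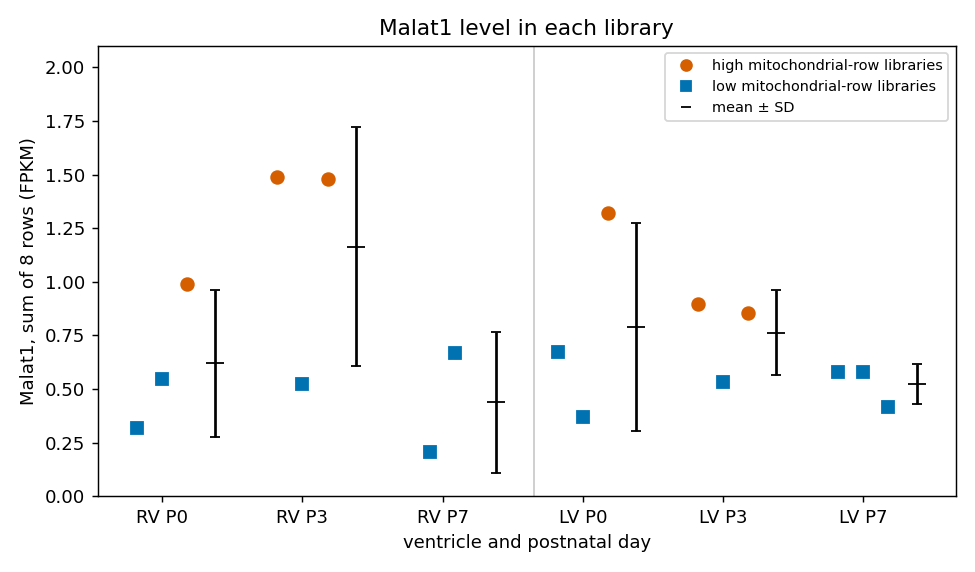
Summed Malat1 level (FPKM) in each library by ventricle and postnatal day, with a point per library coloured by library set and a bar at the group mean with its SD. The RV P3 group spans 0.522 to 1.49 FPKM, and the 6 high-set libraries are the highest of the P0 and P3 groups.

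The counting error behind these levels was large. At its smallest length, NONMMUT033607 rested on 6 fragments in RV P7 replicate 1 (exact Poisson 95% interval 2.2 to 13.1) and on 45 in RV P3 replicate 1 (32.8 to 60.2). The RV libraries held 10, 13 and 30.5 fragments at P0, 45, 11.5 and 41 at P3, and 6 and 19.5 at P7. The LV libraries held 22.5, 8 and 42 fragments at P0, 25, 14.5 and 26 at P3, and 17.5, 16.5 and 13 at P7. The intervals of the extreme libraries did not overlap, so these libraries differed by more than counting error. Whole multiples of that length would give more fragments, so these counts are minima. Intervals cover counting error only.

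The age comparisons ask how the noncoding RNAs of each ventricle change over the first week after birth. Malat1 passed the test in none of them. All differences are limma estimates on log2(FPKM + 0.1) with Benjamini-Hochberg adjustment over 11079 tested rows, and this scale understates the change of low rows. From P0, the Malat1 level at P3 differed by 0.80 ± 0.46 (SE, 95% interval -0.17 to 1.77, limma adjusted p = 0.465) in the RV and by 0.07 ± 0.46 (-0.89 to 1.04, limma adjusted p = 0.979) in the LV. At P7 against P3 the difference was -1.26 ± 0.52 (-2.34 to -0.18, limma adjusted p = 0.355) in the RV and -0.45 ± 0.46 (-1.42 to 0.52, limma adjusted p = 0.704) in the LV. At P7 against P0 it was -0.46 ± 0.52 (-1.54 to 0.62, limma adjusted p = 0.677) in the RV and -0.37 ± 0.46 (-1.34 to 0.59, limma adjusted p = 0.642) in the LV. The median over all tested rows in the same order was -0.04, -0.09, -0.22, -0.22, -0.27 and -0.32, and limma called 2.46%, 1.89%, 0.74%, 1.34%, 5.55% and 11.2% of the rows. With libraries scaled to the same median, Malat1 at P7 against P3 differed by -1.01 in the RV and -0.20 in the LV, and at P7 against P0 by -0.18 in the RV and -0.05 in the LV. The comparisons share libraries, so they are not independent of each other.

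RV P7 against P3 was the comparison in which Malat1 came nearest to the threshold, with an unadjusted limma p of 0.0251. Of the 3 RV P3 libraries, 2 belonged to the high set and both RV P7 libraries to the low set. The difference was -0.54 with the set as a term (limma adjusted p = 0.739) and -0.36 in the low set alone (limma adjusted p = 0.857). It was -0.59 without RV P7 replicate 1. Over the other libraries left out in turn it reached -1.92, without RV P7 replicate 2. At P3 against P0 in the RV, the difference of 0.80 was 0.44 with the set as a term, 0.26 in the low set alone and 0.54 in the high set alone. The LV difference at P3 against P0 changed direction with the set, to -0.28 with the set as a term and -0.54 in the high set alone, against 0.07 in the low set alone. The LV difference at P7 against P3 was 0.26 with the set as a term, and that at P7 against P0 was 0.04 in the low set alone. Within a set, some groups keep a single library, such as RV P3 in the low set, which the fit takes to vary like the other groups.

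The ventricle comparisons ask whether the chambers differ at an age or over all ages. Malat1 differed between RV and LV by -0.06 ± 0.28 over the ages (95% interval -0.64 to 0.53, limma adjusted p = 0.991), where 0.00903% of rows were called. By age the RV minus LV difference was -0.27 ± 0.46 at P0 (limma adjusted p = 0.987), 0.46 ± 0.46 at P3 (limma adjusted p = 0.985) and -0.35 ± 0.52 at P7 (limma adjusted p = 1.0). limma called 0.0% of rows at P0 (0 rows, 587 at an unadjusted p under 0.05), 0.00903% at P3 and 0.00903% at P7. The P7 minus P0 change differed between RV and LV by -0.08 ± 0.69 (-1.54 to 1.37, limma adjusted p = 1.0), where 0.0% of rows were called (0 rows, 454 at an unadjusted p under 0.05). The 95% intervals allow Malat1 differences of more than 1 log2 unit at single ages, so a missed threshold here does not show equal levels.

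**Figure D4:**
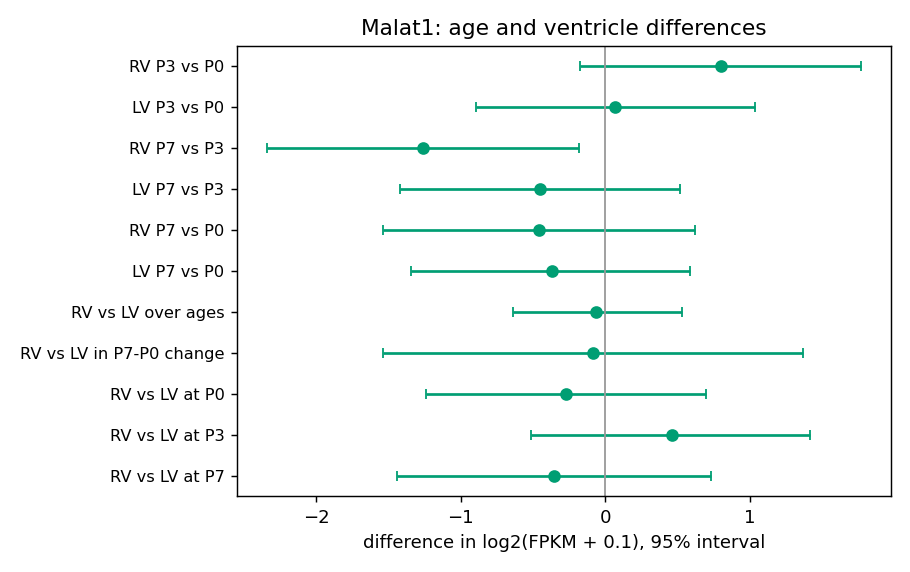
Difference of the summed Malat1 level on the log2(FPKM + 0.1) scale in each age and ventricle comparison (point) with its 95% interval from limma (bar), with a vertical line at 0. The interval of RV P7 against P3, -2.34 to -0.18, is the only interval that does not reach 0, and its adjusted p was 0.355.

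Of the 11 rows only NONMMUT033607 passed the filter of at least 0.1 FPKM in at least 2 libraries, and limma called it in 0 of the 11 comparisons. Its unadjusted p was under 0.05 in RV P7 against P3 alone (0.03, limma adjusted p = 0.371). With no filter, all 11 rows were tested and limma called 0 of them in each comparison. Of all 23940 rows that fit called 0.806% in the RV and 0.547% in the LV at P3 against P0, 0.267% in the RV and 0.221% in the LV at P7 against P3, and 1.59% in the RV and 3.08% in the LV at P7 against P0. It called 0.00418% for RV against LV over the ages, 0.00418% for the difference of the P7 minus P0 changes, 0.00418% for RV against LV at P0, 0.0% at P3 (0 rows, 1254 at an unadjusted p under 0.05) and 0.0627% at P7. At such shares, 0 of 11 does not set these rows apart. Over both ventricles together, exact two-sided permutation tests of the Malat1 sum within ventricles gave p = 0.31 for P3 against P0 (a difference of 0.258 FPKM), p = 0.11 for P7 against P3 (-0.481 FPKM) and p = 0.295 for P7 against P0 (-0.223 FPKM). For RV against LV within ages the exact permutation p was 0.78 (0.0477 FPKM). Over the 12 such tests made on both genes and the long Neat1 row, these exact permutation p became 0.531, 0.33, 0.531 and 0.851 after Benjamini-Hochberg adjustment.

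The Neat1 sum by library follows in the same way. The RV libraries had 0.0363, 0.00289 and 0.0345 FPKM at P0, 0.0566, 0.0227 and 0.0419 FPKM at P3, and 0.0186 and 0.0258 FPKM at P7. The LV libraries had 0.00586, 0.0205 and 0.0183 FPKM at P0, 0.0449, 0.0418 and 0.0417 FPKM at P3, and 0.0445, 0.0377 and 0.00529 FPKM at P7. In the LV the P3 libraries lay above all P0 libraries, and in the RV these ages overlapped. Of the 0.0418 FPKM of LV P3 replicate 2, 0.0342 FPKM came from the sparse row NONMMUT033633, so the LV separation rests on that row. How many of all rows separate these LV groups was not counted. The P7 libraries overlapped those of P0 and of P3 in both ventricles.

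The Neat1 means in the RV were 0.0246 ± 0.0188 FPKM at P0 (SD, n = 3), 0.0404 ± 0.017 FPKM at P3 (SD, n = 3) and 0.0222 ± 0.00505 FPKM at P7 (SD, n = 2). The LV means were 0.0149 ± 0.0079 FPKM at P0, 0.0428 ± 0.00183 FPKM at P3 and 0.0292 ± 0.021 FPKM at P7 (SD, n = 3 each). The small SD at LV P3 holds for the sum only: the long-isoform row alone had 0.0314 ± 0.0207 FPKM there (SD, n = 3). By mean the groups ran LV P3, RV P3, LV P7, RV P0, RV P7 and LV P0, and neighbours in that order overlapped. Both P3 groups stood at the top of that order.

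Fragments of the long-isoform row, which need not all come from the long isoform, were few. NONMMUT033624 had 0, 1 and 13 fragments in the RV at P0, 16, 6.5 and 14.5 at P3, and 7 and 10 at P7. It had 2.5, 6.5 and 7 fragments in the LV at P0, 17.5, 3 and 15.5 at P3, and 3, 13 and 2 at P7. For the library at 0, RV P0 replicate 1, a count of 0 allows up to 3 fragments as a one-sided limit, which is 0.00809 FPKM, and the upper end of the two-sided exact Poisson interval is 3.69 fragments. On this row alone the LV P3 and P0 libraries overlapped, because LV P3 replicate 2 had 0.00762 FPKM here and took 0.0342 FPKM of its sum from NONMMUT033633.

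**Figure D5:**
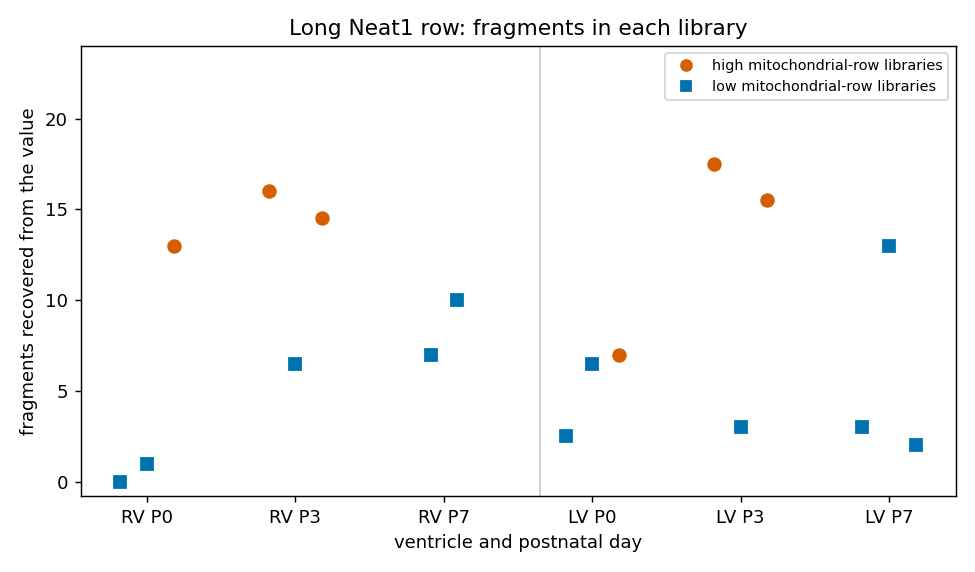
Fragments of the long Neat1 row NONMMUT033624 recovered from its deposited values in each library, by ventricle and postnatal day, with points coloured by library set. Counts run from 0 to 17.5, and the high-set libraries of the P0 and P3 groups have 7 fragments or more.

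Neat1 did not reach the filter, so it had no limma test in the 11 comparisons. Its differences on the log2(FPKM + 0.1) scale at P3 against P0 were 0.18 in the RV and 0.32 in the LV. At P7 against P3 they were -0.19 in the RV and -0.16 in the LV, and became 0.05 in the RV and 0.09 in the LV when libraries were scaled to the same median. At P7 against P0 they were -0.02 in the RV and 0.16 in the LV, and with that scaling 0.26 in the RV and 0.48 in the LV. A level so far below 0.1 is strongly pulled towards 0 on this scale, and with 0.01 in place of 0.1 the P3 against P0 differences were 0.70 in the RV and 1.14 in the LV. RV minus LV was 0.0 over the ages, and the P7 minus P0 change differed between RV and LV by -0.17. With no filter, limma gave the Neat1 sum adjusted p of 0.839 and 0.715 for P3 against P0 in the RV and LV, and at least 0.824 in the other comparisons.

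Over both ventricles, the Neat1 sum was higher at P3 than at P0 by 0.0219 FPKM on average, with an exact two-sided permutation p of 0.02 over 400 arrangements, which became 0.24 when adjusted over the 12 tests. Sparse rows supplied all of the sum in RV P0 replicate 1 (0.0363 FPKM). They also supplied 0.0342 FPKM in LV P3 replicate 2 and 0.0171 FPKM in RV P3 replicate 1. A fragment adds more FPKM on a shorter row, so the sum and its p can hinge on these values. For NONMMUT033624 the difference was 0.0194 FPKM, with an exact permutation p of 0.06 (adjusted 0.33). The P7 against P3 difference of the sum was -0.0159 FPKM (exact permutation p = 0.09, adjusted 0.33) and that of P7 against P0 was 0.00597 FPKM (exact permutation p = 0.535, adjusted 0.713). RV minus LV within ages was 0.000117 FPKM (exact permutation p = 0.988, adjusted 0.988). The Neat1 difference at P3 against P0 was 0.28 in the LV in the high set alone and 0.33 in the low set alone on the log2 scale, and 0.15 and 0.05 in the RV.

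The rows beside the genes give a local comparison. Within 200 kb on either side of the interval lay 10 further rows, of which 8 passed the filter, and limma called 0 of the 8 in each of the 11 comparisons, where 0.0% to 11.2% of all tested rows were called. The highest of them, NONMMUT033647 at chr19:5912946-5914854, averaged 1.8 FPKM in the high set and 1.94 FPKM in the low set, whereas NONMMUT033607 of Malat1 averaged 1.09 FPKM in the high set and 0.447 FPKM in the low set. The next highest, TCONS_00029209, averaged 1.12 FPKM in the high set and 0.717 FPKM in the low set. In RV P7 against P3, where Malat1 differed by -1.26, the median of the 8 rows was -0.07, their range -1.73 to 0.66 and their smallest limma adjusted p 0.137. In RV P3 against P0 their median was -0.19 and their range -0.55 to 1.01.

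The rows most like each gene over the 6 group means were sought among 978 rows with a mean of at least 1 FPKM in every group. For Malat1 they were TCONS_00014731 at chr13:45644114-45644914 (Pearson r = 0.98), TCONS_00052503 at chr7:48880097-48880790 (0.98) and NONMMUT058555 at chr6:117791198-117795593 (0.96). For Neat1 they were NONMMUT006434 at chr10:80257140-80258203 (0.99), TCONS_00058372 at chr8:36642030-36652074 (0.96) and NONMMUT003971 at chr1:180414070-180414643 (0.96). These rows were picked as the highest of 978, and the 95th percentile over the 978 rows was 0.86 for Malat1 and 0.77 for Neat1. Over the 17 single libraries the same rows had r of 0.42, 0.24 and 0.44 with Malat1 and of 0.21, 0.49 and 0.67 with Neat1.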

How the data were processed

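The authors deposited a table for each of the 17 libraries, over the same 23940 rows, of which 702 lack a position. The header names no unit. The values were read as FPKM, normalized by the authors to row length and library depth, because low values multiplied by length fell on steps constant within a library. TPM would show such steps too, so the unit is an inference. Alignment with STAR 2.4.0j to mm10 is named in the submitters' processing notes. Not given in the sources used here are the annotation, the counter and how values were normalized. Positions run past the last GENCODE M21 gene on 10 chromosomes of GRCm38, and they were taken as mm9. Noncoding rows can lie past the last annotated gene and chromosome ends were not compared, so this does not settle the assembly.

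Lengths and fragments were solved from these steps (tolerance 0.0003 of a step) and library depth was implied by them. Intervals are exact Poisson 95% intervals on the fragments, and the limit for a count of 0 is 3 fragments. The log2(FPKM + 0.1) values of all libraries were fitted by group means in limma 3.58.1 (R 4.3.3), using a variance trend and robust moderation, and not scaled further. A row had to reach 0.1 FPKM in 2 or more libraries to be tested, and a call was a Benjamini-Hochberg adjusted p under 0.05, two-sided. The rows of a gene were summed before the fit. The fit was also run on simulated data, which held no library sets and are not used as support here. Python 3.11.15 with pandas 2.3.3, numpy 2.4.6, scipy 1.17.1 and matplotlib 3.10.9 served for the rest.

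All 11 rows are named. Rows like each gene were the 3 with the highest correlation of group means. The rows, the lists and the tests were chosen with earlier results of these data known, and the library sets, the use of the highest row alone and the exact permutation tests were added after seeing the data. The alternatives tried were another pseudocount, no filter, median or upper-quartile scaling, no variance trend and only the compared groups. Further ones were a replicate block, a row best-matching by position, the library set and each library left out. No count test was run, since the values are not counts. No cell type could be checked, because the tables hold noncoding rows without gene names.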

Additional observations from a re-analysis of the deposited data

How the results depend on the processing

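Over the 11 comparisons the Malat1 differences had 323 alternative values, of which 296 kept their direction and 27 changed it. Of those with a test, 0 passed the threshold (lowest limma adjusted p 0.192). Beside libraries left out, changed directions were, in the LV at P3 against P0, -0.28 with the library set as a term and -0.54 in the high set alone; at P7 against P3 in the LV, 0.26 with the set as a term; at P7 against P0 in the LV, 0.04 in the low set alone. RV minus LV over the ages became 0.01 with pseudocount 1 and 0.16 in the high set alone, the difference of the P7 minus P0 changes 0.03 with pseudocount 1, and RV minus LV at P3 -0.03 in the low set alone. TCONS_00030258, among the rows tied as best-matching by position and not by length, was below the filter and so without a test. For it, LV P3 against P0 was -0.14, LV P7 against P3 0.03, RV minus LV over the ages 0.05 and at P0 0.01. The cause was not tested. Upper-quartile scaling gave -0.99 (RV) and -0.24 (LV) at P7 against P3 and -0.13 (RV) and -0.02 (LV) at P7 against P0. Leaving out each library in turn gave Malat1 ranges of 0.46 to 1.25 (RV) and -0.31 to 0.49 (LV) at P3 against P0, -1.92 to -0.59 (RV) and -0.65 to -0.32 (LV) at P7 against P3, -1.12 to 0.21 (RV) and -0.76 to 0.04 (LV) at P7 against P0, -0.28 to 0.17 for RV minus LV over the ages, -0.75 to 0.58 for the difference of changes, and -0.65 to 0.14, 0.23 to 0.90 and -1.02 to 0.31 for RV minus LV at P0, P3 and P7.

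Neat1 had no test with the filter. With pseudocount 0.01 its differences were 0.70 (RV) and 1.14 (LV) at P3 against P0, -0.60 (RV) and -0.63 (LV) at P7 against P3, 0.51 at P7 against P0 in the LV and -0.41 for the difference of changes. With pseudocount 1 the LV value at P3 against P0 was 0.04. Median scaling gave 0.05 (RV) and 0.09 (LV) at P7 against P3 and 0.26 (RV) and 0.48 (LV) at P7 against P0, and upper-quartile scaling 0.08, 0.05, 0.31 and 0.51 in the same order, so the P7 against P3 direction turned with scaling. In the low set alone RV P7 against P3 was -0.01, and for the best-matching row alone the difference of changes was 0.11. Leaving out each library gave Neat1 ranges of 0.05 to 0.27 (RV) and 0.26 to 0.35 (LV) at P3 against P0, -0.29 to -0.11 (RV) and -0.25 to -0.02 (LV) at P7 against P3, -0.15 to 0.05 (RV) and 0.07 to 0.30 (LV) at P7 against P0, -0.04 to 0.05 for RV minus LV over the ages and -0.31 to -0.09 for the difference of changes.

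With the replicate number as a block, RV P7 against P3 of Malat1 was -1.07 (limma adjusted p = 0.454) and 0 member rows were called. Deviations of libraries with the same number correlated at 0.05 to 0.17 over 8 RV and LV pairs, all positive but not all above 0.1, and at -0.09 to 0.04 over 16 pairs of ages. The high set holds the same numbers in both ventricles, so within an age the number goes with the set. The labels do not say what a number marks, and the numbers were not taken to pair samples. The high set alone holds no P7 library.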

Other observations

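Some rows have no position and IDs numbered between those of the Neat1 rows. They were not counted as Neat1, because they have no position. The NONCODE numbers of the positioned rows in and beside the interval ran in order of position. By number these rows would fall at Neat1, which was not tested. NONMMUT033632 was above 0 in 17 of 17 libraries, at a lowest of 0.0544, a median of 0.471 and a highest of 1.24 FPKM. Its lowest value was in LV P0 replicate 1 and its highest in LV P0 replicate 2. NONMMUT033625 was above 0 in RV P0 replicate 2 only, at 0.089 FPKM. With these levels NONMMUT033632 stood above every positioned Neat1 row in each library.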
